A study of Mus musculus with 30 samples.

Results

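Lungs of wild-type (WT) mice labelled 82 weeks old were set against lungs of WT mice labelled 7 weeks old, all given saline, to describe how gene expression differed between old and young lung apart from matrix, protease and chemokine genes. The 6 arrays were chosen by their titles, 3 for each age in the second array set, out of 30 arrays in the series. All 6 mice were c57BL/6 and labelled zmpste24 +/+, so they carried both copies of Zmpste24, the gene for the protease that matures prelamin A, the precursor of the nuclear envelope protein lamin A. No difference between the ages was called for this gene (log2 fold change 0.04, adjusted p = 0.982, limma). Saline had been instilled through the oropharynx in every mouse, and the left lung was frozen at day 21 after perfusion, so no lung here was untouched. The other groups used for comparison were 82-week WT lungs labelled bleomycin, in the same array set, and WT lungs labelled 16 weeks after saline or bleomycin, in the first set. Titles call the 16-week mice young while their descriptions call them old. They are in neither group compared in the main test, and enter it only through the residual spread that all groups share. Each array is labelled as a sample of its own, and p-values measure the spread between these samples, which may in part be technical. Whole lung RNA cannot tell fewer cells of a type from less RNA per cell.

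An adult mouse lung exchanges gas across a thin barrier of alveolar type 1 cells and capillaries. Transcription factors that build the lung in the embryo stay active in its mesenchyme, vessels and epithelium after birth. Hedgehog, BMP, FGF, Wnt and Notch signals pass between these layers. Club cells of the airways carry much of the lung's drug-metabolizing enzyme, and alveolar macrophages take up surfactant lipid.

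Levels are log2 values of the array, on which a difference of 1 is a 2-fold change. Levels of different genes were not set against each other. Of 22180 genes tested, 1104 were higher at 82 weeks (4.98%) and 698 were lower (3.15%) at an adjusted p under 0.05, and with the arrays quantile normalized the split was 1121 and 1102. The median fold change over all genes was 0.01. An absolute change above 1 was found for 314 of the higher and 102 of the lower genes. With matrix, protease and chemokine symbols set aside, 1034 higher and 675 lower genes remained. The 82-week arrays correlated with each other at r = 0.987 to 0.992 over genes and the 7-week arrays at 0.983 to 0.988, and the correlation between ages was 0.966 to 0.981. The count was 932 without 7-week replicate 2, 1116 without 7-week replicate 3, and 1133, 1053 and 1162 without 82-week replicates 1, 2 and 3. Of 257 called members of the gene lists described below, 139 kept their call with any of the 6 arrays left out and 118 lost it without 1 or more of them. Counts of list members are read against the shares of 4.98% higher and 3.15% lower over all genes, and small counts can lie near them.

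The arrays differed in more than age. Xist, transcribed from the inactive X chromosome of females, was at 10.61 in 7-week replicate 1 and at 4.34 to 4.58 in the other 5 arrays, while the Y-linked genes Eif2s3y, Kdm5d and Uty were at 4.58, 3.85 and 3.80 there. In the other 5 arrays Eif2s3y was at 7.56 to 8.40, so 1 of 6 arrays had the pattern of a female, and 1732 genes were called without it. Another array, 7-week replicate 2, stood apart in several cell type lists. Its mean level of cardiac muscle genes was 8.53 against 7.76 and 7.78 in the other 7-week lungs, and its mean level of mesothelium genes was 6.09 against 7.51 and 7.36. Replicates 2 and 3 of the 7-week group correlated best not with each other but with 16-week saline replicates 1 and 3 (r = 0.992 and 0.993). No source used here says whether a lung was measured in both sets, so the 16-week saline arrays cannot serve as an independent control.

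Markers of inflammatory cells and of transitional epithelium differed between the 82-week and 7-week saline lungs as well. Of 21 markers of monocyte-derived macrophages 20 were higher at 82 weeks and none lower, with a median fold change of 2.31. Their mean level was 9.06 to 9.18 in the 82-week lungs and 6.53 to 7.18 in the 7-week lungs. In the 82-week lungs labelled bleomycin it was 8.57, 8.53 and 8.60, below all saline lungs of that age. Of 13 neutrophil markers 6 were higher, and their mean level ran from 7.34 to 7.45 against 6.32 to 6.67. In the bleomycin-labelled lungs all 13 were higher than in young lungs, with a mean level of 8.11, 8.60 and 8.53. Of the 13, 8 were called above the old saline lungs there and 1 below. Genes of the transitional epithelium list, named for cells between alveolar type 2 and type 1 during repair, averaged 8.90 to 8.94 at 82 weeks and 7.74 to 8.11 at 7 weeks. In the 82-week lungs labelled bleomycin they averaged 8.69, 8.26 and 8.24, below all 3 saline lungs of that age. The list also holds Cdkn1a (1.45) and Lgals1 (1.41), and which lung cells made its transcripts was not tested. The part that inflammatory or epithelial cells, sex or handling had in the results below was not tested. Counts or values of the bleomycin-labelled lungs are given beside many of these results. That group shares its 7-week controls with the saline comparison, and 466 genes (2.1%) were higher and 160 (0.721%) lower in it than in the 7-week lungs. Between the 2 old groups 223 genes (1.01%) differed.

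**Figure D1:**
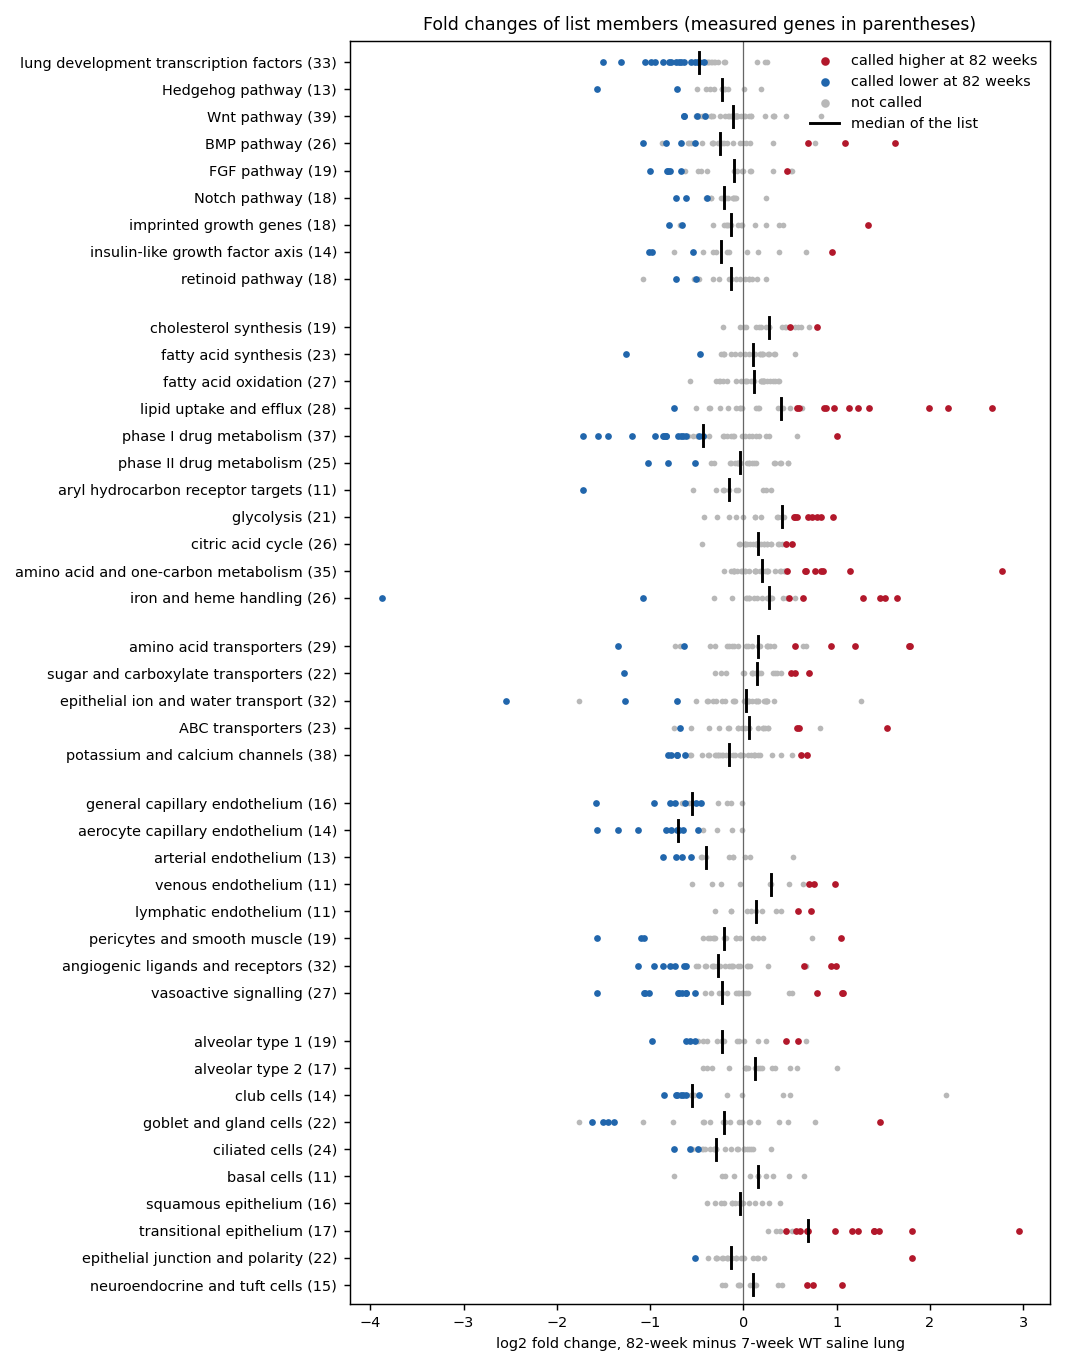
Log2 fold changes, 82-week minus 7-week saline lung, of every measured member of the development, metabolism, transport, vessel and epithelium lists, with called genes in red (higher) or blue (lower) and a black bar at each list's median. Aerocyte genes lie at or left of 0 with a median of -0.70, and transitional epithelium genes lie right of 0 with a median of 0.69.

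The sharpest fall was that of Hamp, the gene for hepcidin, a peptide hormone that makes cells retain iron by removing the exporter ferroportin and that is made mainly by the liver. Hamp was at 5.56, 5.48 and 5.17 in the 82-week lungs and at 8.21, 10.35 and 9.29 in the 7-week lungs. Every old lung lay far below every young lung, and the mean fell by 3.88 on the log2 scale (SE 0.45, adjusted p = 3.48e-06). The highest value was that of 7-week replicate 2, the array that also had the highest cardiac muscle genes. Hamp kept its call with any array left out, with fold changes of -3.35 to -4.42. The old lungs labelled bleomycin were as low, at 5.17, 5.64 and 5.43. Hamp2, the neighbouring copy of the gene in mice, was at 5.01, 4.58 and 5.0 against 4.69, 4.90 and 4.89, with no change called (0.03, adjusted p = 0.951). Both genes lie on chromosome 7, with starts 19848 bases apart. Hamp2 was below 5.2, the mean level under which genes were left out as dim, in every lung, so a fall of Hamp2 might not have been seen. The promoter stretches below are shown because the copies are alike in sequence and only Hamp was called. Whether their differences in sequence had a part in this was not tested. In RefSeq's GRCm38.p6 promoters, capitals mark the hexamer GGCGCC, which holds the core of a BMP response element known from human and mouse hepcidin genes, and TTCNNNGAA, the spaced palindrome bound by STAT factors. The Hamp stretch is chr7:30944090-30944159 and the Hamp2 stretch chr7:30924239-30924308, both on the minus strand.
Hamp promoter, upstream of the start: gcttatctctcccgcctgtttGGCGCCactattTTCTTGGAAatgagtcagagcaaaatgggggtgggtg
Hamp2 promoter, upstream of the start: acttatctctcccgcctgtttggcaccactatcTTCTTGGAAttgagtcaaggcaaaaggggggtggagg
The stretches matched at 61 of 70 bases, and the change G25A, with Hamp's base first and positions counted from the 5′ end of the stretch, falls in the hexamer. The hexamer was found on either strand of 9.59% of 32851 promoters and TTCNNNGAA in 7.02%, and a match describes the sequence and is no evidence of binding.

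Among other genes of iron and heme handling, 6 of 26 were higher and 2 lower, Hamp and Bmp6, a ligand that raises hepcidin in the liver. Bmp6 was at 8.08, 8.27 and 8.19 in old and 8.89, 9.51 and 9.34 in young lungs, and fell by 1.07 (SE 0.20, adjusted p = 0.000985). Hmox1, heme oxygenase 1, which breaks down heme, rose by 1.65 from 7.79, 7.16 and 7.43 to 9.17, 9.15 and 9.01 (adjusted p = 5.95e-05). Slc11a1, a metal transporter of the phagosome in macrophages, rose by 1.51 (adjusted p = 7.91e-06). Lcn2 and Ltf, secreted proteins that bind siderophores and iron, rose by 1.29 and 1.47. Both are also stored in neutrophils, whose markers are given above. The iron importer gene Tfrc (0.47), ferritin heavy chain gene Fth1 (0.28) and ferroportin gene Slc40a1 (0.28) did not pass the test. Without 7-week replicate 2, 3 of the 26 genes were higher, and Lcn2 was among the calls lost. Counts in the bleomycin-labelled lungs were 5 higher and 2 lower.

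**Figure D2:**
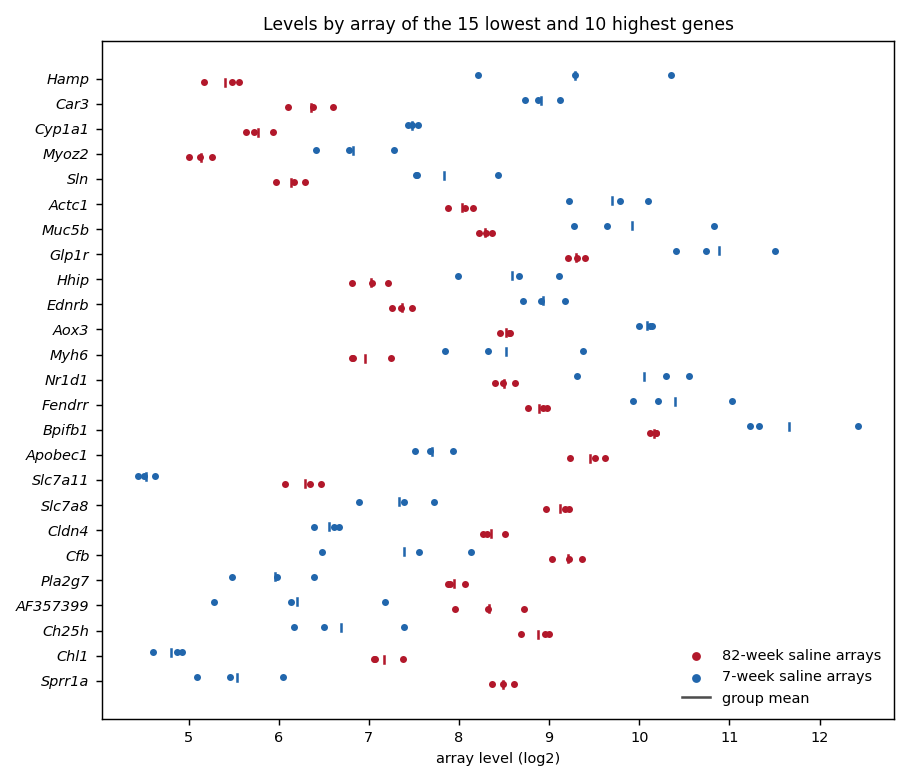
Array levels (log2) of the 15 lowest and 10 highest genes outside matrix, protease, chemokine and immune symbols, with 82-week lungs in red, 7-week lungs in blue and bars at group means. Hamp has the widest gap, from 5.17 to 5.56 in old against 8.21 to 10.35 in young lungs, and Sprr1a has the widest gap in means among the risen genes plotted.

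Of 33 genes listed as lung development transcription factors, 17 were lower at 82 weeks, against 3.15% of all genes. None was higher (0 at an unadjusted p under 0.05, limma), and the median fold change was -0.48. The list also holds Fendrr, a long noncoding RNA and no transcription factor, which is among the 17. Of these 17, 5 were also called lower in the bleomycin-labelled lungs. The count fell to 9 without 82-week replicate 1, to 10 without 82-week replicate 2, 82-week replicate 3 or 7-week replicate 3, and to 11 without 7-week replicate 2, and it was 15 without the female-pattern array.

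Fendrr, a long noncoding RNA needed for heart and body wall development in mice, was at 8.93, 8.77 and 8.98 in old lungs and 9.93, 11.03 and 10.21 in young lungs, and fell by 1.50 (SE 0.29, adjusted p = 0.0012). In the bleomycin-labelled lungs it was at 9.50, 9.95 and 9.99, nearer to the young lungs, and it was not called lower there (adjusted p = 0.401). Foxf1, a factor of lung mesenchyme and capillaries, starts 1276 bases from Fendrr on the opposite strand of chromosome 8. It was at 9.61, 9.67 and 9.73 against 10.23, 10.84 and 10.78, and fell by 0.95 (SE 0.19, adjusted p = 0.00179). Both neighbours were thus lower in every old saline lung than in any young lung.

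Klf12, a zinc finger repressor, fell by 1.31 from 7.83, 8.18 and 7.85 to 6.71, 6.67 and 6.56 (SE 0.24, adjusted p = 0.000665). Tbx3, a T-box factor of lung mesenchyme, fell by 1.05 from 9.64, 9.93 and 9.61 to 8.70, 8.70 and 8.62 (SE 0.15, adjusted p = 4.19e-05). Both were also called lower in the bleomycin-labelled lungs, at -1.09 and -0.94, so their mean level was low in both old groups. Klf2, the factor that blood flow induces in endothelium, fell by 0.99 (adjusted p = 0.0149), a call lost when 82-week replicate 1 or 3 or 7-week replicate 2 or 3 was left out, with fold changes between -0.71 and -1.31 over the alternatives. Smaller falls were called for Foxa1 (-0.86), which directs lung epithelium, and for Epas1 (-0.63), the oxygen-regulated factor HIF-2 alpha of endothelium. Nkx2-1, the defining factor of lung epithelium, fell by 0.48, a call lost without 82-week replicate 1 or 2 or 7-week replicate 3, and with fold changes of -0.39 to -0.53. Sox2 (0.14), Sox9 (-0.27), Gata6 (-0.43) and Foxa2 (-0.31) did not pass the test.

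In the Hedgehog pathway 2 of 13 genes were lower, against 3.15% of all genes, and 2 were in the bleomycin-labelled lungs. Hhip, which binds Hedgehog ligands at the cell surface and is itself a target of the pathway, was at 7.04, 7.21 and 6.81 in old and 8.67, 7.99 and 9.11 in young lungs, and fell by 1.57 (SE 0.31, adjusted p = 0.00152). Its level in the bleomycin-labelled lungs, 7.15, 7.15 and 7.35, was close to that of the other old lungs. The receptor and target gene Ptch1 fell by 0.71, a call kept without 7-week replicate 2 and lost without any other of the arrays, with fold changes of -0.59 to -0.82 over the alternatives. Ligands and transcription factors of the pathway did not pass the test, with Shh at -0.16 and Gli1 at -0.32.

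BMP genes changed in both directions. Of 26 measured, 4 were lower and 3 higher, against 3.15% and 4.98% of all genes. In the bleomycin-labelled lungs 3 were lower and 1 higher. Smad6, an inhibitor induced by BMP signals, fell by 0.83, and the endothelial receptor Acvrl1 fell by 0.67. The receptor gene Bmpr2 fell by 0.51, a call lost without any 1 of the 6 arrays, with fold changes of -0.45 to -0.56. The 3 higher genes were secreted proteins that bind BMPs or activins. Grem1, gremlin 1, was at 7.49, 7.20 and 7.64 against 5.79, 5.70 and 5.98, a rise of 1.62 (SE 0.30, adjusted p = 0.000737), and it stayed above the young lungs in the bleomycin-labelled ones at 7.77, 6.98 and 6.58. Fst, follistatin, rose by 1.09 from 6.57, 6.52 and 6.83 to 7.73, 7.78 and 7.69 (adjusted p = 0.00116). Bmper rose by 0.69, a call lost without 82-week replicate 1 or 2 or 7-week replicate 2 (0.53 to 0.78). Without 82-week replicate 1 or 7-week replicate 2, 2 BMP genes instead of 4 were lower and the Smad6 call was lost, and without 7-week replicate 2 the Acvrl1 call was lost too.

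In the FGF pathway 5 of 19 genes were lower and 1 higher, against 3.15% and 4.98% of all genes. The higher count is near its share, and the gene was Spred1, an inhibitor of the MAP kinase route (0.47). Its call was lost without any array other than 7-week replicate 1 (0.41 to 0.54), and without that array 2 genes were higher. Against the young lungs 1 FGF gene was lower and 0 were higher in the bleomycin-labelled lungs. Fgfr4 was at 6.66, 6.76 and 6.80 in old and 7.99, 7.36 and 7.86 in young lungs, and fell by 1.00 (SE 0.20, adjusted p = 0.00192). Fgfr2, the receptor of airway and alveolar epithelium, fell by 0.82 from 9.67, 9.41 and 9.72 to 8.87, 8.82 and 8.67 (adjusted p = 0.00129). In neither gene did the groups overlap. Fgf1 fell by 0.78 and the feedback inhibitor Spry1 by 0.81. The mesenchymal ligands Fgf10 (-0.63) and Fgf7 (-0.10) did not pass the test.

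Other growth pathways held few calls. Of 39 Wnt genes 4 were lower, against 3.15% of all genes. Among them was Axin2, a target of the pathway, at 7.20, 7.30 and 7.24 against 7.83, 7.90 and 7.91 (adjusted p = 0.00482). The Axin2 call was lost when its probe sets were averaged, with fold changes of -0.36 to -0.70 over the alternatives. Only 2 Wnt genes were lower without 82-week replicate 1, and 1 without 82-week replicate 2 or 7-week replicate 2 or 3. Of 18 Notch genes 3 were lower, against 3.15% of all genes, namely the endothelial ligand and receptor Dll4 and Notch4 and the modifier Mfng. The Notch count was 0 without 82-week replicate 1 or 7-week replicate 2, and 1 without 82-week or 7-week replicate 3. The Mfng call was lost without 82-week replicate 2 as well. The bleomycin-labelled lungs had 2 lower Wnt genes and 0 lower Notch genes. Irs1, an adaptor of insulin and IGF receptors, fell by 1.01 from 7.70, 7.92 and 8.11 to 6.86, 6.83 and 7.02 (adjusted p = 0.000562). Igf1 itself rose by 0.95 (adjusted p = 0.00828) and was as high in the bleomycin-labelled lungs (0.99), though its call was lost without 7-week replicate 2, with fold changes of 0.69 to 1.19 over the alternatives. Among 18 imprinted growth genes Peg3 fell by 0.80 and Gatm, an enzyme of creatine synthesis, rose by 1.34. Of 18 retinoid genes 2 fell, Aldh1a1, which makes retinoic acid, by 0.73 and the receptor gene Rarg by 0.51, the latter not called without 82-week or 7-week replicate 2.

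Vessel markers differed by vessel type in how many were called and in which direction, and no test set one type against another. Of 14 aerocyte markers, which label the large capillary cells that face the alveolar air, 9 were lower and 0 higher (0 at an unadjusted p under 0.05), with a median of -0.70. This count was 7 to 9 with any array left out, and 7 genes were lower in the bleomycin-labelled lungs. Ednrb, a receptor for endothelins, was at 7.36, 7.25 and 7.48 in old and 8.71, 8.91 and 9.18 in young lungs, and fell by 1.56 (SE 0.21, adjusted p = 2.23e-05). Kdr, the main receptor for VEGF-A in endothelium, fell by 1.13 from 10.71, 10.86 and 10.82 to 9.62, 9.65 and 9.74 (SE 0.17, adjusted p = 7.3e-05). Fibin fell by 1.35 from 7.90, 7.72 and 7.90 to 6.54, 6.50 and 6.44 (adjusted p = 8.4e-05). All 3 genes were lower in both old groups than in any young lung. Vegfa, the ligand of Kdr and a product of alveolar type 1 cells, fell by 0.61 (adjusted p = 0.00208). It was not called lower in the bleomycin-labelled lungs.

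General capillary markers were lower in 7 of 16, with a median of -0.55. Glp1r, the receptor for glucagon-like peptide 1, was at 9.20, 9.39 and 9.31 against 10.41, 10.74 and 11.51, and fell by 1.58 (SE 0.33, adjusted p = 0.00224). In the bleomycin-labelled lungs Glp1r was at 10.31, 10.79 and 10.72, above the old saline lungs by 1.3 (adjusted p = 0.0483). The angiopoietin receptor Tek fell by 0.73 and its relative Tie1 by 0.79. Pecam1, present on endothelium of all kinds, fell by 0.45, a call lost without 82-week or 7-week replicate 2, and Cdh5 (-0.58) and Cldn5 (-0.51) did not pass the test. Only 4 general capillary genes were called without 82-week replicate 2 or 3 or 7-week replicate 2 or 3, and 1 was called lower in the bleomycin-labelled lungs. Of 13 arterial markers 4 were lower, Efnb2, Dll4, Cdh13 and Sema3g, but 2 without any of the 82-week arrays, 1 without 7-week replicate 2 or 3, and 0 in the bleomycin-labelled lungs.

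Of 11 venous markers 3 were higher, against 4.98% of all genes, and in the bleomycin-labelled lungs 2 were higher and 1 lower. Vwf, von Willebrand factor, was at 9.92, 10.03 and 9.87 in old and 9.18, 9.08 and 9.28 in young lungs, a rise of 0.76 (SE 0.18, adjusted p = 0.00593), and was as high in the bleomycin-labelled lungs (0.79). Selp, P-selectin of activated vessels and platelets, rose by 0.98 from 7.32, 6.57 and 6.78 to 7.91, 7.96 and 7.74 (adjusted p = 0.00201), and stood in the bleomycin-labelled lungs at -0.87 relative to the other old lungs. Ackr1, a mark of venules, rose by 0.70, a call lost without 82-week replicate 3 or 7-week replicate 2 or 3 (0.64 to 0.78). Of 11 lymphatic markers 2, Pdpn and Gja1, were higher, against 4.98% of all genes, but 0 without any of the 82-week arrays or 7-week replicate 2, and 1 without 7-week replicate 3. Both are also made by other lung cells, and Prox1 (0.08) and Lyve1 (-0.14) did not pass.

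Vasoactive signalling held 10 lower and 3 higher genes of 27, and 4 lower and 1 higher in the bleomycin-labelled lungs. Nitric oxide acts on vessel tone through soluble guanylate cyclase, whose subunit genes Gucy1a1 and Gucy1b1 were both lower. Gucy1a1 was at 9.14, 9.21 and 9.30 in old and 10.09, 10.25 and 10.49 in young lungs, and fell by 1.06 (SE 0.14, adjusted p = 1.29e-05). The enzyme that breaks down its product, encoded by Pde5a, fell by 1.01 from 10.08, 10.11 and 10.33 to 9.15, 9.17 and 9.17 (SE 0.17, adjusted p = 0.000243). Both genes were as low in the bleomycin-labelled lungs, at -0.91 and -0.96. The natriuretic peptide receptor gene Npr1 fell by 0.69 and the phosphodiesterase gene Pde3a by 0.66, while the synthase gene Nos3 (0.05) did not pass. The related receptors Npr2 and Npr3 fell by 0.71 and 1.06, and the Npr3 call was lost without any 1 of the 6 arrays and the Npr2 call without 82-week replicate 3 or 7-week replicate 2 or 3.

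The 3 vasoactive genes that rose were Ptger4, Adm and Htr2b. Ptger4, a receptor for prostaglandin E2, was at 7.87, 7.90 and 7.56 against 6.64, 6.94 and 6.55, a rise of 1.06 (adjusted p = 2.34e-05). In the bleomycin-labelled lungs it was at 7.13, 6.90 and 7.13 and was not called higher. Adm, the vasodilator adrenomedullin, rose by 1.06 at 82 weeks, a call lost without 82-week replicate 1 or 2 or 7-week replicate 2 or 3 (0.82 to 1.45), and stood at -0.09 in the bleomycin-labelled lungs. Without 7-week replicate 2 only 6 vasoactive genes were lower and 1 higher, and 1 was higher without 82-week replicate 2. Of 19 pericyte and smooth muscle markers 3 were lower and 1 higher, against 3.15% and 4.98% of all genes. In the bleomycin-labelled lungs 4 were lower and 1 higher. Cnn1, a smooth muscle protein, fell by 1.10 and Rgs5, a pericyte mark, rose by 1.05. The Rgs5 call was lost without 82-week replicate 1 or 2 or 7-week replicate 2, and the Cnn1 call without 82-week replicate 3 or 7-week replicate 2 or 3. Acta2 (0.21) and Myh11 (-0.30) did not pass.

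**Figure D3:**
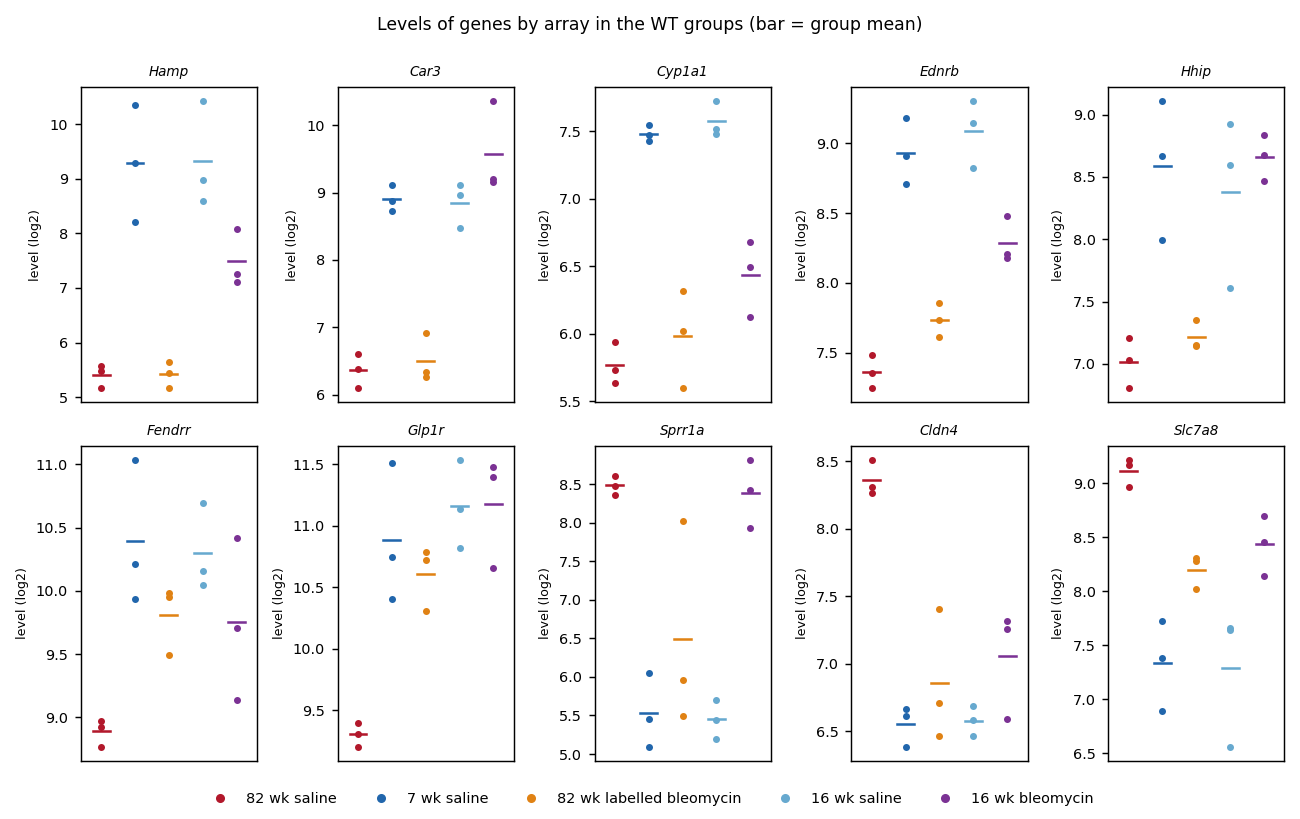
Array levels (log2) of 10 genes in the WT groups, 3 arrays each, with a bar at each group mean. Hamp, Car3, Cyp1a1, Ednrb and Hhip are low in both 82-week groups, whereas Glp1r and Fendrr lie higher and Sprr1a and Cldn4 lie lower on average in the 82-week lungs labelled bleomycin than in those given saline.

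Of 14 club cell markers 7 were lower and 0 higher, with a median of -0.55. Cyp2f2, a club cell cytochrome P450, was at 12.48, 12.36 and 12.30 in old and 13.25, 13.39 and 13.06 in young lungs, and fell by 0.86 (SE 0.15, adjusted p = 0.000489). Cbr2, carbonyl reductase 2, fell by 0.65 from 13.28, 13.37 and 13.08 to 12.57, 12.51 and 12.70 (adjusted p = 0.00114). The defining club cell gene Scgb1a1 stood at -0.01, though it lies near the top of the array's range. Scgb3a1 fell by 0.71, a call lost without any of the 82-week arrays or 7-week replicate 1, and its level in the bleomycin-labelled lungs was 10.55, 11.29 and 11.10 against 9.86, 9.84 and 10.02 in the other old lungs (adjusted p = 0.0122). The club cell list had 1 lower and 1 higher gene in the bleomycin-labelled lungs. Without 7-week replicate 1, 5 club cell genes were lower and 3 higher.

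Of 22 goblet and gland cell genes 4 were lower and 1 higher, against 3.15% and 4.98% of all genes, so the higher count is near its share. In the bleomycin-labelled lungs 1 was lower. Muc5b, the main airway mucin, was at 8.30, 8.36 and 8.22 in old and 10.83, 9.65 and 9.27 in young lungs, and fell by 1.63 (SE 0.33, adjusted p = 0.00171). Bpifb1, a secreted airway defence protein, was at 10.19, 10.12 and 10.18 against 12.43, 11.23 and 11.33, and fell by 1.50 (adjusted p = 0.00912). Tff2, a trefoil peptide, was at 6.02, 6.10 and 6.44 against 8.96, 6.92 and 7.02. The highest value of each gene was that of 7-week replicate 1, the array with the female pattern. Without it 2 genes were lower and 3 higher, the Bpifb1 and Tff2 calls were lost, and Muc5b kept its call with a smaller fold change, down to -1.17. Without 82-week replicate 1 or 2 the Tff2 call was lost too, and 3 genes were lower. Of 24 ciliated cell genes 3 were lower, the axoneme genes Hydin, Dnah5 and Dnah9, against 3.15% of all genes. The count was 1 without any of the 82-week arrays and 0 without 7-week replicate 2. The Dnah9 call was lost without 7-week replicate 1 as well, and 1 ciliated cell gene was lower in the bleomycin-labelled lungs. The cilium regulator Foxj1 stood at -0.06.

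Chad, a leucine-rich repeat protein of cartilage, was among the widest falls in any list. It is a matrix gene, left out of the 15 lowest for that reason, and is given here as a member of the airway cartilage list. It was at 7.70, 7.81 and 7.64 in old and 10.67, 10.03 and 9.62 in young lungs, and fell by 2.39 (SE 0.27, adjusted p = 3.48e-06). Cytl1, made by cartilage cells, fell by 0.98 (adjusted p = 0.00615). The other 11 of 13 airway cartilage genes did not pass, with Col2a1 at 0.04 and Acan at 0.00, so these 2 falls stood alone in their list.

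No alveolar type 2 gene of 17 was called (3 higher and 1 lower at an unadjusted p under 0.05, limma), Sftpc at 0.03 and Sftpb at 0.02. Among 19 alveolar type 1 genes, 4 were lower, led by Rtkn2 (-0.98), and 2 were higher, Pdpn and Krt7. Neither was higher without an 82-week array or without 7-week replicate 2, and 1 was without 7-week replicate 1 or 3. In the bleomycin-labelled lungs 0 alveolar type 1 genes were lower and 1 was higher. None of 11 basal cell genes was called (2 higher and 1 lower at an unadjusted p under 0.05). Among transitional epithelium genes the widest rises were those of Sprr1a and Cldn4. Sprr1a, a small proline-rich protein, was at 8.36, 8.61 and 8.48 in old and 6.05, 5.10 and 5.46 in young lungs, a rise of 2.95 (SE 0.46, adjusted p = 9.86e-05). Cldn4, a tight junction claudin, was at 8.51, 8.26 and 8.31 against 6.66, 6.39 and 6.61, a rise of 1.81 (SE 0.21, adjusted p = 3.48e-06). No bleomycin-labelled lung reached the old saline level of Sprr1a (8.02, 5.96 and 5.49), although replicate 1 lay above every young lung, and none reached that of Cldn4 (7.41, 6.71 and 6.47). Neither gene was called higher there than in young lungs (adjusted p = 0.369 and 0.618). In all, 13 of 17 transitional genes were higher, and 8 to 12 with any array left out, 8 without 82-week replicate 2. Of the 17, 1 was higher in the bleomycin-labelled lungs than in young lungs, and 5 were lower than in the other old lungs.

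The promoters of Sprr1a and Cldn4 are shown because these were the widest rises of that list. Capitals mark the letters TGANTCA, known as the AP-1 motif. The stretches are chr3:92485972-92486041 and chr5:134947075-134947184 of GRCm38.p6, both on the minus strand, from RefSeq.
Sprr1a promoter, upstream of the start: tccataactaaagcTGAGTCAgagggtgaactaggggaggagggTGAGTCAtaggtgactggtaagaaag
Cldn4 promoter, upstream of the start: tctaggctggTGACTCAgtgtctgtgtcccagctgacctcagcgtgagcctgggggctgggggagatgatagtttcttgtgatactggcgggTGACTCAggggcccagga
The motif was found in 6.75% of 32851 promoters, among them those of Hamp, which fell, and Hamp2, where it is not in capitals above. No binding was measured.

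Of 37 genes of phase I drug metabolism 15 were lower and 1 higher, with a median of -0.43, and 10 or 11 were lower with any array left out. Of these genes 2 were lower in the bleomycin-labelled lungs than in young lungs, and 3 were higher there than in the other old lungs. Cyp1a1, which oxidizes aromatic hydrocarbons, was at 5.94, 5.63 and 5.73 in old and 7.55, 7.43 and 7.47 in young lungs, and fell by 1.72 (SE 0.23, adjusted p = 2.36e-05), and was as low in the bleomycin-labelled lungs (6.02, 6.32 and 5.60). It is the classic target of the aryl hydrocarbon receptor, but none of the other 10 genes in that receptor's list passed, with Cyp1b1 at 0.24, Ahrr at -0.08 and Tiparp at 0.22. Its promoter, on the plus strand at chr9:57697523-57697592 of GRCm38.p6 in RefSeq, is shown with GCGTG, the core of the receptor's binding site, and TATAAA in capitals.
Cyp1a1 promoter, upstream of the start: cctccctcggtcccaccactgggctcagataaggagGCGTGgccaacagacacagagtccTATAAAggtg
GCGTG was found on either strand of 28.2% of promoters and TATAAA in 12.4%, so neither sets this promoter apart.

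Aox3, an aldehyde oxidase, was at 8.55, 8.56 and 8.45 in old and 10.12, 10.14 and 9.99 in young lungs, and fell by 1.56 (SE 0.21, adjusted p = 2.23e-05). Fmo1, a flavin monooxygenase, fell by 1.46 from 9.76, 10.23 and 10.27 to 8.68, 8.61 and 8.60 (SE 0.15, adjusted p = 1.29e-06). In the bleomycin-labelled lungs Aox3 was at 9.20, 9.54 and 9.78 and Fmo1 at 9.27, 9.58 and 9.48, both above the old saline lungs (adjusted p = 0.0163 and 0.00571). Cyp2e1 fell by 1.20 and the carboxylesterase gene Ces1f by 0.95. Cyp7b1, an oxysterol hydroxylase, was the only phase I gene that rose, by 1.00 (adjusted p = 0.0018). In phase II metabolism 3 of 25 genes were lower, against 3.15% of all genes, with a median of -0.03. They were led by Inmt (-1.02), a methyltransferase of lung fibroblasts.

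Of 28 genes of lipid uptake and efflux 11 were higher, against 4.98% of all genes, and 1 was lower, with a median of 0.40, and 10 were higher in the bleomycin-labelled lungs. Ch25h, which makes 25-hydroxycholesterol, was at 8.69, 9.0 and 8.95 in old and 7.39, 6.16 and 6.50 in young lungs, a rise of 2.19 (SE 0.36, adjusted p = 0.000208). Pla2g7, which cleaves oxidized phospholipids, was at 8.06, 7.88 and 7.90 against 5.98, 5.48 and 6.39, a rise of 1.99 (SE 0.24, adjusted p = 6.02e-06). Lipoprotein lipase, encoded by Lpl, rose by 1.23 from 9.17, 9.10 and 9.20 to 10.39, 10.45 and 10.33 (adjusted p = 7.3e-05), and Plin2, which coats lipid droplets, rose by 1.13. All 4 were as high in the bleomycin-labelled lungs, by 2.47, 1.97, 1.26 and 1.09. Msr1, a scavenger receptor of macrophages, rose by 2.66, and Pla2g7 and Apoe are also in the macrophage list given above. The sole lower gene, Plin4 (-0.74), was not called without 82-week replicate 1 or 2 or 7-week replicate 2 or 3.

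Lipid synthesis and oxidation held few calls. None of 27 fatty acid oxidation genes passed (2 higher and 1 lower at an unadjusted p under 0.05, limma). Acss1, which makes acetyl-CoA from acetate in mitochondria, was at 8.72, 8.71 and 8.69 in old and 9.94, 10.03 and 9.93 in young lungs, and fell by 1.26 (SE 0.23, adjusted p = 0.000511), and at 9.48, 9.85 and 9.80 in the bleomycin-labelled lungs, above the other old lungs (adjusted p = 0.0221). Its relative Acss2 was the other lower gene of 23 in fatty acid synthesis, and its call was lost without any array except 82-week replicate 1 (-0.40 to -0.57). Without 7-week replicate 1 another gene of the list was higher. Of 19 cholesterol synthesis genes 2 were higher, Fdps (0.80) and Mvd (0.50), against 4.98% of all genes. Only 1 was higher without 82-week replicate 2 or 3 or 7-week replicate 3, and 0 without 7-week replicate 2. The Mvd call was lost without 7-week replicate 1 too, when another gene was called.

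Glycolysis genes were higher in 8 of 21, with a median of 0.42 and 0 lower. Pgk1, phosphoglycerate kinase, was at 9.79, 9.86 and 9.72 in old and 9.04, 8.66 and 8.79 in young lungs, a rise of 0.96 (SE 0.16, adjusted p = 0.000346). Pgam1 rose by 0.83, and Pkm, the pyruvate kinase of most tissues, rose by 0.79 from 10.25, 10.11 and 10.18 to 10.92, 10.97 and 11.03. Hif1a, the oxygen-regulated factor that drives many glycolysis genes, rose by 0.99 (adjusted p = 0.00305). Only 5 of the 21 were called without 82-week replicate 1 or 2 or 7-week replicate 2 or 3, and 2 were higher in the bleomycin-labelled lungs. Of 26 citric acid cycle genes 2 were higher, Sdhb and Pcx, against 4.98% of all genes. The count was 1 without 7-week replicate 1 or 2, and 0 without any other array.

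Amino acid and one-carbon metabolism held 8 higher genes of 35 and 0 lower. Arg1, arginase 1, was at 9.24, 8.77 and 9.07 in old and 6.63, 6.45 and 5.67 in young lungs, a rise of 2.77 (SE 0.35, adjusted p = 1.05e-05), and it is also in the macrophage list. Kynu, kynureninase of tryptophan breakdown, rose by 1.14 from 5.14, 5.36 and 5.64 to 6.52, 6.61 and 6.43 (adjusted p = 0.000232). Sat1, which acetylates polyamines for export, rose by 0.83, and the folate enzyme genes Mthfd2 and Mthfd1l by 0.67 each. Without 7-week replicate 2, 5 genes were called, and 4 were higher in the bleomycin-labelled lungs.

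Transporters of amino acids changed in both directions, with 5 of 29 higher and 2 lower, and 8 higher and 1 lower in the bleomycin-labelled lungs. Slc7a8, a carrier of large neutral amino acids, was at 9.18, 9.22 and 8.96 in old and 7.39, 6.89 and 7.73 in young lungs, a rise of 1.79 (SE 0.26, adjusted p = 5.38e-05). Slc7a11, which takes up cystine for glutathione synthesis, was at 6.47, 6.35 and 6.07 against 4.62, 4.51 and 4.44, a rise of 1.77 (SE 0.24, adjusted p = 2.34e-05). Slc15a3, an endosomal peptide carrier of phagocytes, rose by 1.19. Slc7a10, a carrier of small neutral amino acids found in lipofibroblasts, fell by 1.34 from 8.27, 7.95 and 7.83 to 6.60, 6.67 and 6.75 (adjusted p = 0.000294).

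The list of epithelial ion and water transport also holds Car3, a cytosolic carbonic anhydrase abundant in fat and muscle, which is no carrier. Car3 was at 6.38, 6.10 and 6.60 in old and 8.73, 9.12 and 8.88 in young lungs, and fell by 2.55 (SE 0.37, adjusted p = 4.93e-05). The bleomycin-labelled lungs were as low, at 6.91, 6.34 and 6.26. Car3 is also in the fat list, of whose 13 genes 4 were lower, while the defining fat genes Adipoq (-0.14), Plin1 (-0.35) and Ucp1 (0.05) did not pass. Without 82-week replicate 1 or 7-week replicate 3, 2 fat genes were lower. Slc4a5, a sodium bicarbonate cotransporter, fell by 1.27 from 9.25, 9.46 and 9.15 to 7.92, 8.12 and 8.0 (adjusted p = 6.01e-05). The sodium channel gene Scnn1a (0.06) and water channel gene Aqp5 (0.16) of alveolar epithelium did not pass.

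Slc5a12, a sodium-coupled lactate carrier, fell by 1.28 (adjusted p = 0.00182), and the lactate exporter gene Slc16a3 rose by 0.51. Of 23 ABC transporters 3 were higher, against 4.98% of all genes. They were led by the drug efflux pump gene Abcb1b at 7.13, 6.68 and 6.78 in old against 5.16, 5.40 and 5.42 in young lungs, a rise of 1.54 (SE 0.14, adjusted p = 8.97e-08). Its near copy Abcb1a stood at -0.37 and did not pass. The cholesterol pumps Abca1 and Abcg1 rose by 0.58 and 0.60, calls lost without 82-week replicate 2 or 3 or 7-week replicate 1 or 2. Of 38 potassium and calcium channel genes 5 were lower and 2 higher, against 3.15% and 4.98% of all genes, so the higher count is near its share. In the bleomycin-labelled lungs 0 were lower and 1 higher. The lower count was 3 without 82-week replicate 1 or 2 and 2 without 7-week replicate 2, when 1 gene was higher. Kcna2, a voltage-gated potassium channel, fell by 0.71 and kept its call with any array left out.

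**Figure D4:**
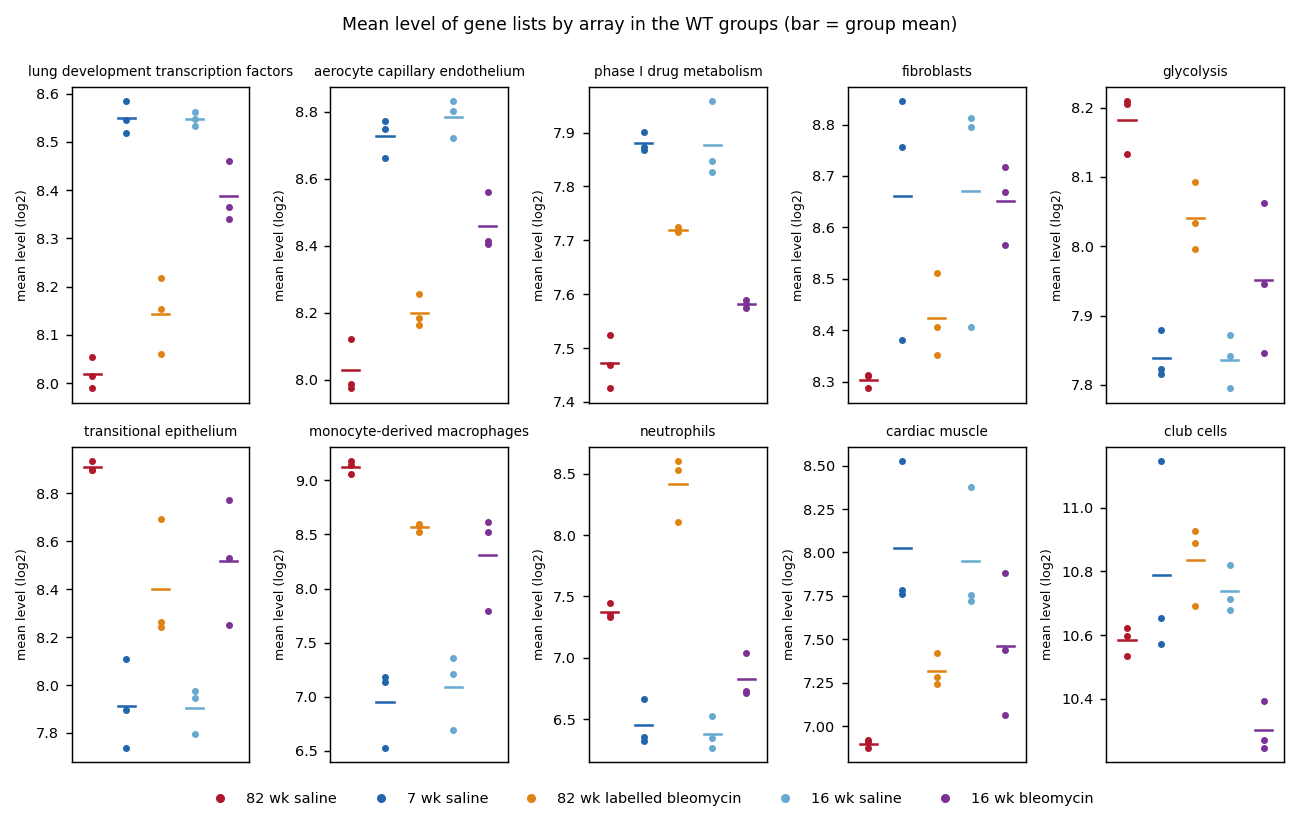
Mean array level (log2) of 10 gene lists in the WT groups, 3 arrays each, with a bar at each group mean. Macrophage genes average 9.06 to 9.18 in 82-week saline lungs and 6.53 to 7.18 in 7-week saline lungs, and cardiac muscle genes stand highest of the 7-week lungs in replicate 2 (8.53).

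Fibroblast markers were lower in 9 of 21, with a median of -0.60, and 1, the lipid droplet gene Plin2, was higher. The lower ones included Slc7a10, Inmt, Fgfr4 and Limch1, the last at 9.99, 9.87 and 9.92 against 10.67, 10.58 and 10.67 (adjusted p = 0.000208). Without 82-week replicate 2 or 3 or 7-week replicate 1, 5 were lower, and 2 were lower in the bleomycin-labelled lungs. Pdgfra, made by fibroblasts of all kinds, stood at 0.05. Cardiac muscle genes, which mark the sleeve of heart muscle around pulmonary veins, were lower in 13 of 16, with 8, 7 and 5 lower without 82-week replicate 1, 82-week replicate 2 and 7-week replicate 2, and 2 lower in the bleomycin-labelled lungs. None of 14 skeletal muscle genes was called (0 at an unadjusted p under 0.05, limma). Clock genes had 3 lower and 1 higher of 17, with Nr1d1 at -1.55, and 7 were lower without 7-week replicate 1 and 1 without 7-week replicate 2 or 3. None was lower in the bleomycin-labelled lungs.

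Rises outside the lists included Chl1, a neural cell adhesion protein, at 7.06, 7.38 and 7.06 in old and 4.93, 4.87 and 4.61 in young lungs, a rise of 2.37 (SE 0.43, adjusted p = 0.000623). Apobec1, a cytidine deaminase that edits apolipoprotein B RNA, rose by 1.75 from 7.67, 7.51 and 7.93 to 9.51, 9.62 and 9.23 (adjusted p = 1.67e-05). Cfb, complement factor B, rose by 1.82 from 8.13, 6.48 and 7.55 to 9.22, 9.37 and 9.03 (adjusted p = 0.000305). The small RNA gene AF357399 rose by 2.13 (adjusted p = 0.0399), a call lost when any of the 82-week arrays or 7-week replicate 2 or 3 was left out, with fold changes of 1.68 to 2.63 over the alternatives.

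Of 479 microRNA genes measured, 15 were lower (3.13%, near the 3.15% of all genes) and 4 higher (0.835%, against 4.98% of all genes). The array reads the gene or its precursor and does not tell the arms of a hairpin apart. MicroRNAs silence messages that pair with the seed, bases 2 to 8 of the mature strand. Seeds are printed in capitals below for the let-7, miR-181 and miR-200 families, from RefSeq (GRCm38.p6). A mature strand was found there for 14 of the 19 called genes, and those of other families are not shown. The let-7 family, which promotes differentiation, shares 1 seed, and the mature strands are shown because members with the same seed were called differently.
let-7f-5p: uGAGGUAGuagauuguauaguu
let-7c-5p: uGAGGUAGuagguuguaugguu
let-7b-5p: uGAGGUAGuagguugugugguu
let-7a-5p: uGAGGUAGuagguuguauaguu
let-7d-5p: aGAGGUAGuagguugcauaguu
miR-181b-5p: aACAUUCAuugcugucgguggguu
miR-181a-5p: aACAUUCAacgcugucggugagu
miR-200b-3p: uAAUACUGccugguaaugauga
miR-429-3p: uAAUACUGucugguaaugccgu
miR-200a-3p: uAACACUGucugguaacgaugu
The miR-181 strands share a seed, miR-200b shares its seed with miR-429, and miR-200a differs from both within the seed.

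Of 11 let-7 genes measured 3 were lower, 0 higher and 8 not called. Mirlet7c-2 on chromosome 15 was at 5.91, 5.88 and 5.30 in old and 7.26, 7.25 and 7.00 in young lungs, and fell by 1.48 (SE 0.27, adjusted p = 0.000615). Mirlet7b, 709 bases from it, was at 3.63, 4.22 and 3.42 against 4.42, 4.69 and 4.62, and fell by 0.82 (adjusted p = 0.0201), with its call lost without 82-week replicate 1 or 3 or 7-week replicate 2 or 3. The groups overlapped in neither gene. Mirlet7f-1 on chromosome 13 was at 3.26, 2.28 and 2.82 against 5.24, 4.05 and 4.53, and fell by 1.82 (adjusted p = 0.0302), with its call lost without 82-week replicate 2 or 3 or 7-week replicate 1 or 3 and fold changes of -0.96 to -2.10 over the alternatives. Its neighbours Mirlet7a-1, 350 bases away, and Mirlet7d, 1811 bases away, stood at -0.28 and -0.59 and did not pass (adjusted p = 0.505 and 0.307). Mirlet7f-2, the other gene for let-7f, stood at 0.02 and Mirlet7c-1 at -0.95 (adjusted p = 0.0778), and Mirlet7a-2, Mirlet7e, Mirlet7g and Mirlet7i at -0.39 to 0.12.

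Mir200b, of a family that keeps epithelium in its epithelial state, was at 5.24, 5.77 and 5.88 in old and 6.71, 7.02 and 6.68 in young lungs, and fell by 1.17 (SE 0.21, adjusted p = 0.000486), while Mir200a, 774 bases away, stood at -0.36 (adjusted p = 0.197). Mir181b-1 fell by 1.18 (adjusted p = 0.017), a call lost without 82-week replicate 2 or 3 or 7-week replicate 1, and Mir181a-1, 182 bases away, stood at -0.57 (adjusted p = 0.29). Mir30d fell by 0.96 and Mir1192 by 0.93, calls kept with any array left out. The muscle microRNA gene Mir133a-2 rose by 0.97 from 4.41, 3.35 and 3.87 to 4.78, 4.82 and 4.93, a call lost without 7-week replicate 2, while the cardiac muscle genes above were lower. In the bleomycin-labelled lungs Mir200b, Mir181b-1 and Mir1192 stood at 0.05, 0.15 and 0.22 against the young lungs, and were not called lower there.

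**Figure D5:**
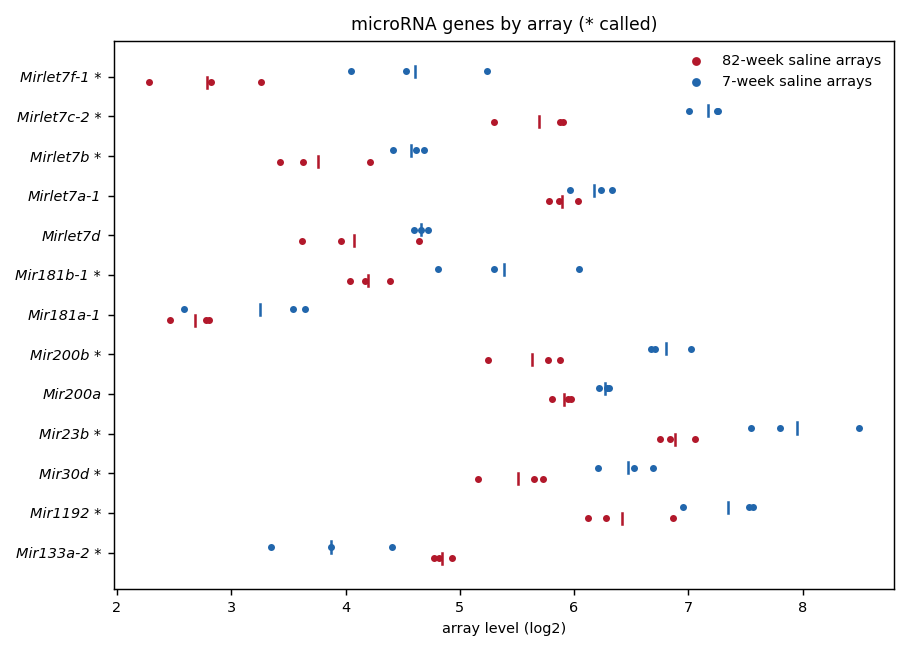
Array levels (log2) of 13 microRNA genes, with 82-week lungs in red, 7-week lungs in blue, bars at group means and an asterisk after each called gene. For Mirlet7c-2 the old lungs lie at 5.30 to 5.91 and the young at 7.00 to 7.26, and Mir133a-2 is the sole gene shown that is higher in old lungs.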

How the data were processed

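Biotin-labelled RNA of mouse lung was read on 30 Affymetrix arrays (Mouse Gene 2.0 ST), 3 per group in 10 groups. What the authors deposited is 1 log2 value for each probe set and array, and they name R, Bioconductor and limma. How background was corrected and how arrays were normalized and summarized is not stated in the labels or methods, and no further scaling was applied. With 3 arrays a group, their number limits precision.

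Of 41345 probe sets, 23521 name 1 gene, 1820 several and 16004 none in the probe table. For each of 22180 genes the probe set with the highest mean was used (1082 genes have more than 1). Groups came from the sample labels. A mean per group was fitted to the 30 arrays with limma 3.58.1 under R 4.3.3, whose residual spread all groups share, with Benjamini-Hochberg adjustment over all genes, and the fit was tested on simulated data. A call is an adjusted p under 0.05. The members and the 60 gene lists were chosen with earlier results of these data known. Named were the 15 lowest and 10 highest called genes whose arrays do not overlap, outside matrix, protease, chemokine, immune and unnamed symbols, up to 4 called genes of each list and 8 microRNA genes. Others were chosen after their values were seen. Alternatives were array weights, centring, quantile normalization, probe set choices, leaving out genes with a mean level under 5.2, a trended robust variance, other array subsets, a replicate block, each array left out, the 16-week control and stricter thresholds. The 82-week arrays labelled bleomycin and the difference between genotypes were added after seeing the data. Promoter motifs were searched on both strands of the 250 bases before each start.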

Additional observations from a re-analysis of the deposited data

Results flagged for a closer look

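The change with age was set against that in Zmpste24-deficient lungs for 25 genes. These were the 15 lowest and 10 highest called genes whose arrays do not overlap, outside matrix, protease, chemokine, immune and unnamed symbols. The difference between the 2 changes was tested in limma, a comparison added after seeing the data. The Zmpste24-deficient saline lungs lie in the first array set, are labelled 16 and 7 weeks old, and 1 young array among them has Zmpste24 near the WT level, so genotype, array set and age span cannot be told apart. The genes were chosen for their WT change, which is one side of the difference, so p-values are not given and the values below are a description. Of the 25 genes, 14 passed the threshold, an adjusted p under 0.05 for the difference, and the rest are described last. Each difference is the WT change minus the Zmpste24-deficient change on the log2 scale.

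Some genes that fell in WT were also below 0 in the Zmpste24-deficient lungs. The difference was -2.57 for Hamp, whose change in the deficient lungs was -1.31 (SE 0.45), -1.31 for Cyp1a1 (-0.41, SE 0.23) and -1.38 for Fendrr (-0.13, SE 0.29). Others stood above 0 in the deficient lungs, with a difference of -1.99 for Aox3 (0.43, SE 0.21), -1.98 for Muc5b (0.36, SE 0.33) and -1.65 for Ednrb (0.08, SE 0.21). Of the genes that rose in WT, 4 stood below 0 in the deficient lungs. The difference was 5.27 for Sprr1a (-2.32, SE 0.46), 3.12 for Chl1 (-0.75, SE 0.43), 3.04 for AF357399 (-0.90, SE 0.65) and 2.09 for Cldn4 (-0.28, SE 0.21). It was 2.10 for Ch25h (0.10, SE 0.36), 1.37 for Pla2g7 (0.63, SE 0.24), 1.31 for Apobec1 (0.44, SE 0.23) and 1.29 for Slc7a8 (0.50, SE 0.26), which stood above 0 in both genotypes. The rest of the 25 genes did not pass the threshold, and each changed in the same direction in both genotypes. Their falls in the deficient lungs ran from -1.86 for Car3 (SE 0.37) and -1.64 for Sln (SE 0.40) to -0.22 for Glp1r (SE 0.33). The rises were 0.65 for Cfb (SE 0.31) and 0.75 for Slc7a11 (SE 0.24).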

How the results depend on the processing

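The count of 1802 called genes was 4821 with array weights, 2924 when only the second array set was fitted, 868 at an adjusted p under 0.01, 416 with an absolute log2 fold change above 1, and 626 with the 82-week lungs labelled bleomycin in place of those given saline. With 1 array left out it ran from 932 to 1732. It stayed within 1.5 times of 1802, at 1672 to 2223, under the other alternatives. Replicate numbers are shared by both groups but did not pair the arrays, since deviations of same-numbered arrays from their group means correlated at 0.040, -0.077 and 0.017. With the replicate number as a block the count was 1672 over 30 arrays and 1716 over the 6 arrays. Of 168 genes named by rule, 94 kept their call in every alternative on the saline lungs. With the 16-week control 24 lost it, and with that control set aside 46 lost it only with an array left out. Plagl1 turned from -0.66 to 0.061 when its probe sets were averaged. With the bleomycin-labelled lungs 68 of 168 kept their call, 93 lost it and 7 changed sign, Abca6 to 0.27, Adm to -0.087, Scgb3a1 to 0.36, Junb to -0.039, Mir181b-1 to 0.15, Mir200b to 0.046 and Mir1192 to 0.22. The cause was not tested. With 3 arrays a group, small changes and dim genes such as the let-7 genes are measured with the least certainty.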
